A study of Rattus norvegicus with 20 samples.

Results

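The 9 genes described here are the fatty acid receptor Ppara and 8 genes known as its targets in rodent liver: the omega-hydroxylases Cyp4a1, Cyp4a2 and Cyp4a3, the peroxisomal enzymes Ehhadh, Hsd17b4 and Acaa1a, the thioesterase Acot1 and the secreted lipase inhibitor Angptl4. They were taken as every probe set whose platform annotation lists one of these symbols, on all 20 arrays. Of the 9 genes, 5 had a probe set of their own with values (Ehhadh, Hsd17b4, Cyp4a1, Cyp4a3 and Angptl4). The own probe sets of Ppara and Acot1 had no value on any array, so no level of Ppara is given. Acaa1a and Cyp4a2 were listed only on probe sets shared with a second symbol. With the 3 shared probe sets (Acaa1b and Acaa1a, Cyp4a3 and Cyp4a2, Acot2 and Acot1), 8 probe sets of the 27702 tested carry the results, and no gene was named from a shared one.

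Livers of male Sprague-Dawley rats were profiled on an Affymetrix rat array, with 5 rats for each of 4 diets. The rats came at 4 weeks of age, had 5 days on a commercial diet and then 21 days on the test diet. The casein diet held casein, a milk protein, at 200 g per kg. The conventional soybean diet took protein in equal parts from casein and Fukuyutaka, a conventional soybean cultivar. The 1:1 high-isoflavone diet took it in equal parts from casein and Yukipirika, a cultivar rich in isoflavones, and the 3:1 high-isoflavone diet took 3 parts from casein and 1 part from Yukipirika. All 3 soybean diets therefore still held casein. Diets had 7 rats each, or 8 for the 1:1 high-isoflavone diet, and the 5 on arrays were chosen for average food intake. Arrays were assigned by title, and titles were matched to these diets by wording. The sources used here do not give the hour at which livers were taken, or whether rats were fasted.

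All levels are signals on the log2 scale (1 array per rat, n = 5 per diet), so a difference of 1 is a 2-fold difference. A probe set was called when its adjusted p in limma, over all 27702 probe sets, was under 0.05, and only called genes are said to have risen or fallen. The summed signal of 7 of 8 measured hepatocyte markers lay between 12.25 and 12.61 (log2) on the 20 arrays. The lowest value on casein replicate 5 (0.134, log10) and on 3:1 high-isoflavone replicate 1 (0.142) stood above those of the other 18 arrays, which were at most -0.265. Array medians of the casein rats (2.434 to 2.491) and the conventional soybean rats (2.510 to 2.562) did not overlap, and the median difference over all genes was 0.04. The 3′ minus 5′ signal of the beta-actin control, which rises as RNA degrades, spanned 1.286 to 1.533 (log2) in casein rats and 1.320 to 1.829 in conventional soybean rats, with 1.348 to 2.134 for the 3:1 and 1.071 to 2.104 for the 1:1 high-isoflavone rats. The same measure of the GAPDH control was lower in conventional soybean rats, 0.7 to 0.917 against 0.845 to 1.059 in casein rats. It spanned 0.856 to 1.004 in the 3:1 and 0.809 to 0.914 in the 1:1 high-isoflavone rats. In whole liver, fewer cells of a type and less RNA per cell cannot be told apart.

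PPAR-alpha is a nuclear receptor that fatty acids and fibrate drugs activate. It pairs with RXR and binds paired half-sites in DNA, and in rodent liver it raises genes of fatty acid breakdown in peroxisomes, microsomes and mitochondria. In omega-oxidation, CYP4A enzymes hydroxylate the far end of a fatty acid, the end product is a dicarboxylic acid, and peroxisomes shorten these acids and very long chains by beta-oxidation. Fasting raises much of this set in liver.

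Cyp4a2 and Cyp4a3 lie close together on chromosome 5, and a probe set that lists both is kept apart below. The sequences 250 bases before each start are shown because these are the only members besides Hsd17b4 whose promoter window held the receptor half-site AGGTCA on either strand. They are from RefSeq (GRCr8, minus strand, written 5′ to 3′ along the gene), Cyp4a2 at chr5:134170909-134171158 and Cyp4a3 at chr5:134352237-134352486, with the half-site in capitals.
Cyp4a2: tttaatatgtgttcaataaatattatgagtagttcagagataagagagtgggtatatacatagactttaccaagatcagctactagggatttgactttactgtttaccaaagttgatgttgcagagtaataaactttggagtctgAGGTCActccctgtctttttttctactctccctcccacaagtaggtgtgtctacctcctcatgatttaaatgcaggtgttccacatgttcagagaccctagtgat
Cyp4a3: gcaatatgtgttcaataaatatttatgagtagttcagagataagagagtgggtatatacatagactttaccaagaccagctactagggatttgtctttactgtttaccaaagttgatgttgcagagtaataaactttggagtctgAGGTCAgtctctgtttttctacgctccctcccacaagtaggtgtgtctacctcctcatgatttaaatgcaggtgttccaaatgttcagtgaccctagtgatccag
In both, the half-site began at position -105 from the start. Over windows of 300 bases (250 before and 50 after the start) the 2 genes were identical at 284 of 295 aligned positions (96.3%). Windows were listed for 8 of the 9 members, all but Cyp4a1. The half-site was present in 16.2% of 33469 windows in the table. The receptor's full direct repeat, AGGTCANAGGTCA, was searched on both strands and an exact copy holds the half-site 2 times. The closest match in Cyp4a2, Cyp4a3 and Ehhadh had 3 mismatches over the 12 fixed bases, where 24.9% of all windows held one with at most 3, and in Ppara, Acaa1a, Hsd17b4, Acot1 and Angptl4 it had 4. These matches describe letters in a short window and are not binding sites.

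Against casein, conventional soybean came with a lower Cyp4a1 signal, and none of the other 7 probe sets was called. That is 1 of 8 beside 1.64% of all probe sets called in this comparison. Cyp4a1 makes a microsomal omega-hydroxylase of medium and long fatty acids. On casein the 5 rats read 6.65, 6.86, 7.49, 6.51 and 7.14, and on conventional soybean 5.97, 6.52, 6.04, 6.04 and 6.25. Only the highest rat on conventional soybean reached the lowest on casein, so the groups overlapped by one rat. The mean fell by 0.77 on the log2 scale (SE 0.185, 95% interval -1.15 to -0.38), from 6.93 ± 0.396 to 6.16 ± 0.225 (SD, n = 5), which is 1.70 times higher on casein (limma adjusted p = 0.0388). The call lies close to the threshold. It was lost without casein replicate 2 (0.0692), 3 (0.0894, difference -0.63) or 5 (0.099), without conventional soybean replicate 1 (0.0764), 3 (0.08), 4 (0.078) or 5 (0.0669), and without both arrays of higher lowest value (adjusted p = 0.108, difference -0.71), while the difference ranged from -0.91 to -0.63 over all 29 alternatives.

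On both high-isoflavone diets Cyp4a1 was not called. The 3:1 rats read 6.65, 7.08, 6.92, 6.38 and 6.95 (mean 6.80 ± 0.281, SD, n = 5) and the 1:1 rats 6.18, 7.13, 6.74, 6.82 and 6.98 (6.77 ± 0.363). One rat of the 1:1 diet, replicate 1, was as low as the conventional soybean rats, and the others lay in the casein range. The differences from casein were -0.14 (adjusted p = 0.918) and -0.16 (adjusted p = 0.728), and the interval of the second, -0.54 to 0.22, still allows a drop. Between cultivars at the same share of protein, Cyp4a1 was 0.61 higher on the 1:1 high-isoflavone diet (SE 0.185, interval 0.22 to 0.99), which was not called (adjusted p = 0.403). The cultivars were therefore not shown to differ in Cyp4a1. The order of means was casein, 3:1, 1:1 and conventional soybean, and only the conventional diet differed from casein by the test.

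Cyp4a3, a close relative with the same reaction, had its highest mean on the 1:1 high-isoflavone diet. The 1:1 rats read 7.27, 7.67, 7.22, 7.39 and 7.32, the 3:1 rats 6.65, 7.41, 7.08, 7.27 and 7.43, the casein rats 6.67, 6.98, 7.58, 6.49 and 7.13, and the conventional soybean rats 7.08, 5.94, 5.89, 6.76 and 6.99. Every 1:1 rat lay above every conventional soybean rat, while the casein and 3:1 ranges overlapped both. The 1:1 minus conventional difference was 0.84 (SE 0.226, interval 0.37 to 1.31) from means of 7.37 ± 0.176 and 6.53 ± 0.575 (SD, n = 5), and it was not called (adjusted p = 0.26). Of the 8 probe sets, 0 were called between the cultivars, where 0.0758% of all probe sets were, and groups did not overlap for 1.4% of all. Against casein Cyp4a3 differed by -0.44 on conventional soybean (adjusted p = 0.334), 0.20 on the 3:1 diet (adjusted p = 0.897) and 0.40 on the 1:1 diet (adjusted p = 0.391).

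The probe set shared by Cyp4a3 and Cyp4a2 gave the widest range of all 8. Its values were 7.40, 7.50, 8.30, 6.99 and 7.45 on casein, 8.19, 6.21, 7.38, 8.24 and 8.45 on conventional soybean, 7.54, 8.28, 8.00, 8.22 and 8.45 on the 3:1 diet and 8.35, 8.73, 8.24, 8.67 and 8.36 on the 1:1 diet. The 1:1 rats were the tightest and highest (8.47 ± 0.216, SD, n = 5), above 4 of 5 casein rats, and conventional soybean spread over both ends (7.70 ± 0.924). The 1:1 minus casein difference was 0.94 (SE 0.31, interval 0.29 to 1.59), not called (adjusted p = 0.117). It was called with only the arrays compared in the fit (adjusted p = 0.0285) and without conventional soybean replicate 2 (adjusted p = 0.0263), the rat at 6.21, both of which change the shared estimate of spread and not the difference. No probe set of the 8 was called in this comparison, where 2.21% of all were. On conventional soybean the mean sat 0.17 above casein here (adjusted p = 0.816) while the own Cyp4a3 probe set sat 0.44 below it, neither called.

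**Figure D1:**
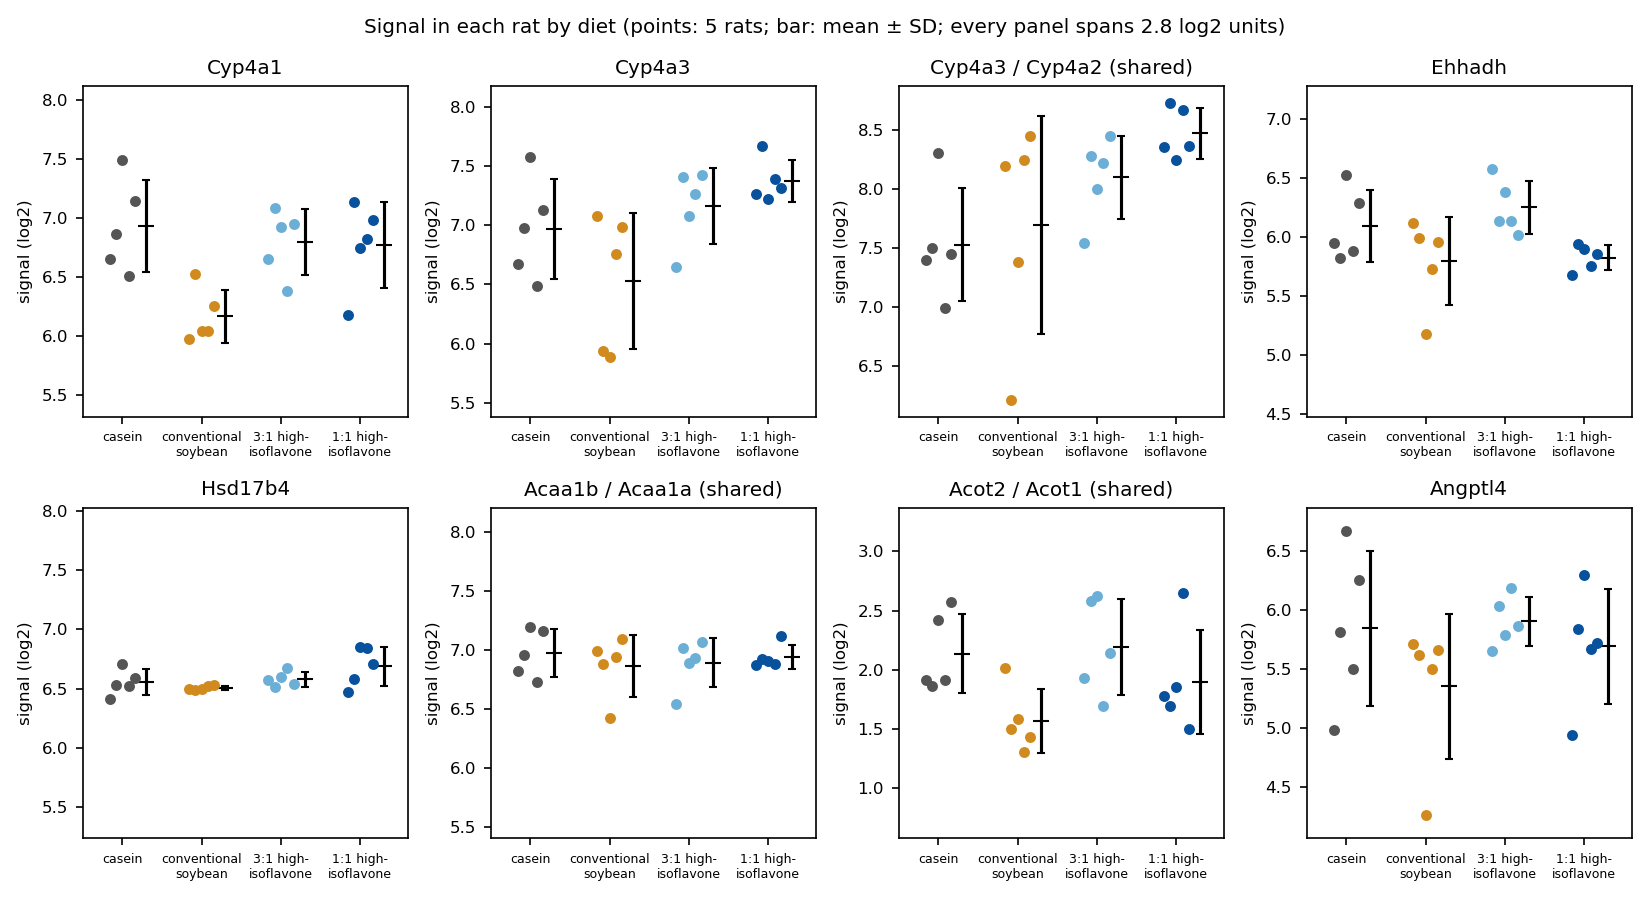
Log2 signal (y axis) of the 8 probe sets in each rat, by diet (x axis). Points are rats and the bar beside them is the mean ± SD of 5, with every panel spanning the same range. Cyp4a1 is low in 4 of 5 conventional soybean rats (5.97 to 6.25), and the 1:1 high-isoflavone rats are the highest group for Cyp4a3 and for the probe set it shares with Cyp4a2.

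No member probe set of the peroxisomal enzymes of beta-oxidation was called in any comparison. Ehhadh, the bifunctional hydratase and dehydrogenase of the classical inducible pathway, read 5.95, 5.82, 6.53, 5.88 and 6.29 on casein, 6.12, 5.99, 5.18, 5.73 and 5.96 on conventional soybean, 6.58, 6.14, 6.38, 6.14 and 6.02 on the 3:1 diet and 5.68, 5.94, 5.90, 5.76 and 5.86 on the 1:1 diet. Every 3:1 rat lay above every 1:1 rat, and the other 2 diets overlapped both. The 1:1 minus 3:1 difference was -0.43 (SE 0.158, interval -0.75 to -0.10), from 6.25 ± 0.225 to 5.83 ± 0.107 (SD, n = 5), and was not called (adjusted p = 0.6). Between these 2 shares of the same cultivar limma called 0 of all probe sets (0.0%), with 2000 at an unadjusted p under 0.05, and groups did not overlap for 1.14%. Ehhadh differed from casein by -0.30 on conventional soybean (interval -0.63 to 0.03, adjusted p = 0.344) and -0.27 on the 1:1 diet (interval -0.60 to 0.06, adjusted p = 0.412). Both intervals still allow a drop.

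Hsd17b4, the D-bifunctional protein that also takes branched and very long chains, had the narrowest range of the 8 probe sets. It read 6.41, 6.53, 6.71, 6.52 and 6.59 on casein, 6.50, 6.49, 6.50, 6.52 and 6.53 on conventional soybean, 6.57, 6.51, 6.60, 6.67 and 6.54 on the 3:1 diet and 6.47, 6.58, 6.85, 6.84 and 6.71 on the 1:1 diet. All 4 ranges overlapped, and the conventional rats lay closest together, from 6.49 to 6.53. The largest of its differences, 0.18 between the 1:1 and conventional diets (SE 0.0764, interval 0.02 to 0.34), was not called (adjusted p = 0.64). The probe set of Acaa1b and Acaa1a, the thiolases of the last step, lay between 6.42 and 7.19 in all 20 rats, with means of 6.97 ± 0.203 in casein rats, 6.86 ± 0.262 in conventional soybean rats, 6.89 ± 0.206 in 3:1 rats and 6.94 ± 0.103 in 1:1 rats (SD, n = 5). Its 5 differences lay between -0.11 and 0.07, and intervals of the 3 against casein excluded changes beyond -0.36 and 0.22.

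The thioesterases release free fatty acids from acyl-CoA. The probe set of Acot2 and Acot1, a dim one, read 1.91, 1.86, 2.42, 1.91 and 2.57 on casein and 2.01, 1.50, 1.58, 1.30 and 1.43 on conventional soybean. Of the conventional rats 4 lay below every casein rat, and the fifth lay inside their range. The difference was -0.57 (SE 0.216, interval -1.02 to -0.12) and was not called (adjusted p = 0.181). Acot2 was also read by probe sets of its own. The dimmer ones differed by -0.52 and -0.55 in the same comparison (adjusted p = 0.167 and 0.319). The brightest differed by -0.70 (SE 0.237, adjusted p = 0.135). Its casein rats read 3.63, 4.01, 4.72, 3.85 and 4.19, and its conventional rats 3.55, 3.62, 3.10, 3.06 and 3.57, with no overlap, which held for 4.62% of all probe sets there. On the high-isoflavone diets the shared probe set had means of 2.19 ± 0.407 (3:1) and 1.89 ± 0.441 (1:1, SD, n = 5), beside 2.13 ± 0.333 on casein.

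Angptl4 is made by liver and fat and inhibits lipoprotein lipase. Its SD within a diet was 0.206 to 0.656, beside diet means of 5.35 to 5.90. It read 4.98, 5.81, 6.67, 5.50 and 6.25 on casein, 5.71, 5.62, 4.26, 5.50 and 5.66 on conventional soybean, 5.65, 6.03, 5.79, 6.18 and 5.86 on the 3:1 diet and 4.94, 5.84, 6.29, 5.67 and 5.72 on the 1:1 diet. All ranges overlapped, and 1 conventional rat, replicate 3, was far below its 4 group mates. Its difference on conventional soybean was -0.49 (SE 0.291, interval -1.10 to 0.12, adjusted p = 0.403), and its other differences lay between -0.21 and 0.34. Of adipose markers, 3 of 5 were measured, with summed signals of 3.76 to 4.30 over all rats. In that list Cfd fell by 0.64 on the 1:1 diet (adjusted p = 0.0334), a call lost in 7 of 29 alternatives (highest adjusted p 0.0924), 6 of them omissions of 1 casein or 1:1 array. The other 2 lay above casein there, Plin1 by 0.50 (adjusted p = 0.224) and Cidea by 0.43 (adjusted p = 0.402), neither called. The part of adipose cells in the Angptl4 values was not tested.

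The 3:1 high-isoflavone diet differed least from casein. None of the 8 probe sets was called, beside 0.0397% of all probe sets, and the differences of 7 lay between -0.14 and 0.20. The exception in size was the probe set of Cyp4a3 and Cyp4a2, at 0.57 (SE 0.31, interval -0.08 to 1.22, adjusted p = 0.684). The casein control rats are shared by the 3 comparisons with casein, so their values for a gene are not independent of one another.

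**Figure D2:**
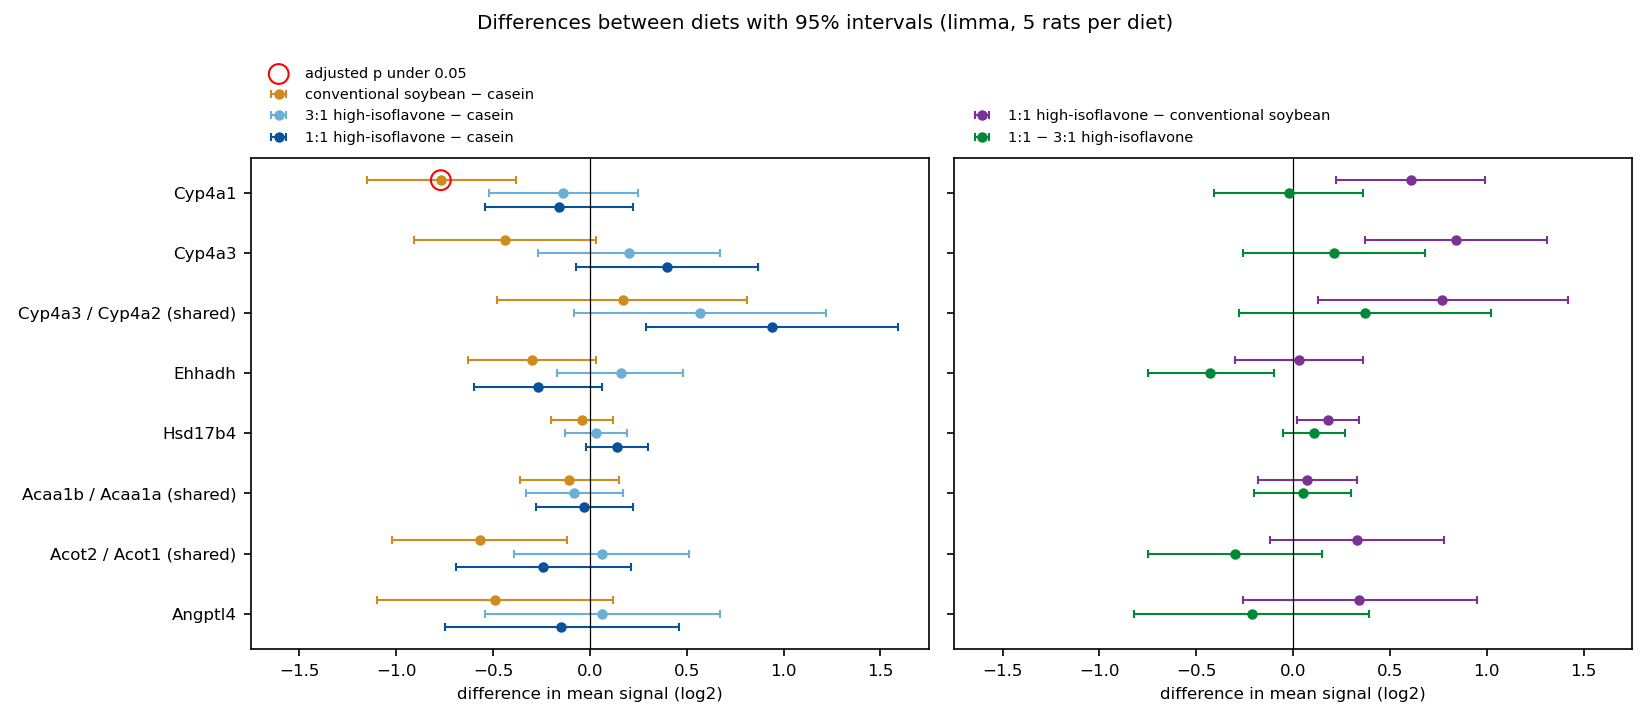
Difference in mean log2 signal (x axis) with its 95% interval for each of the 8 probe sets (y axis), each diet against casein on the left and the high-isoflavone contrasts on the right. The circled point, Cyp4a1 on conventional soybean at -0.77, is the only one with an adjusted p under 0.05.

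Within a diet, some members varied together from rat to rat. Each value was expressed as the deviation from its diet mean, so that diet differences do not enter, and the 28 pairs of the 8 probe sets were correlated over 20 rats. All 28 values of r were above 0, from 0.13 to 0.88 with a median of 0.35. The same share was not computed for pairs over all probe sets. These values therefore do not show that varying together is particular to these genes. Without the 2 rats farthest from the median of the first member of a pair, the median was 0.29 and 3 pairs fell below 0, those of Ehhadh with the Cyp4a3 and Cyp4a2 probe set (-0.13), Hsd17b4 with Cyp4a1 (-0.10) and Cyp4a1 with the Cyp4a3 and Cyp4a2 probe set (-0.06). Ehhadh with the Acaa1 probe set went from 0.46 to 0.06 and Ehhadh with Cyp4a3 from 0.40 to 0.04, so these relations rest on 2 rats. After Benjamini-Hochberg adjustment over the 28 pairs, 6 had a permutation p under 0.05 by both Pearson and Spearman. The strongest, Cyp4a3 with the probe set it shares with Cyp4a2, had r = 0.88 and rho = 0.95 (permutation p = 3e-05 and 1e-05, the latter the smallest that 100000 permutations can give; adjusted 0.00084 and 0.00028), and 0.90 without the 2 rats farthest from the median. Both probe sets list Cyp4a3.

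Pairs of different genes also varied together. Cyp4a3 with the Acaa1 probe set had r = 0.81 and rho = 0.77 (permutation p = 0.00013 and 0.00052, adjusted 0.00182 and 0.00728; r = 0.72 without the 2 farthest rats). Angptl4 was in 4 of the 6 pairs, those with the Acaa1 probe set (r = 0.74, rho = 0.71; permutation p = 0.00179 and 0.00301; adjusted 0.0125 and 0.0211), Ehhadh (r = 0.70, rho = 0.65; p = 0.00728 and 0.00987; adjusted 0.034 and 0.0395), Hsd17b4 (r = 0.64, rho = 0.64; p = 0.00141 and 0.00538; adjusted 0.0125 and 0.0301) and Cyp4a3 (r = 0.63, rho = 0.61; p = 0.00401 and 0.00685; adjusted 0.0225 and 0.032). Without the 2 farthest rats these were 0.64, 0.44, 0.46 and 0.66, lowest for the Ehhadh and Hsd17b4 pairs. Cyp4a1 with Cyp4a3 gave r = 0.35 and rho = 0.39 (permutation p = 0.129 and 0.11), which did not pass (adjusted 0.277 and 0.208). Points share an array, and r moved by at most 0.11 when arrays were first centred on their medians. Arrays of replicate 1 deviated together across diets over all probe sets (correlations of 0.203 to 0.401), and Cyp4a1 lay below its diet mean in all 4 of these rats (by 0.28 on casein, 0.19 on conventional soybean, 0.15 on the 3:1 diet and 0.59 on the 1:1 diet). With the mean of each replicate number also removed, the 6 passing pairs had r of 0.64 to 0.91, and without the 4 rats numbered 1 they had 0.42 to 0.88, lowest for Hsd17b4 with Angptl4.

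**Figure D3:**
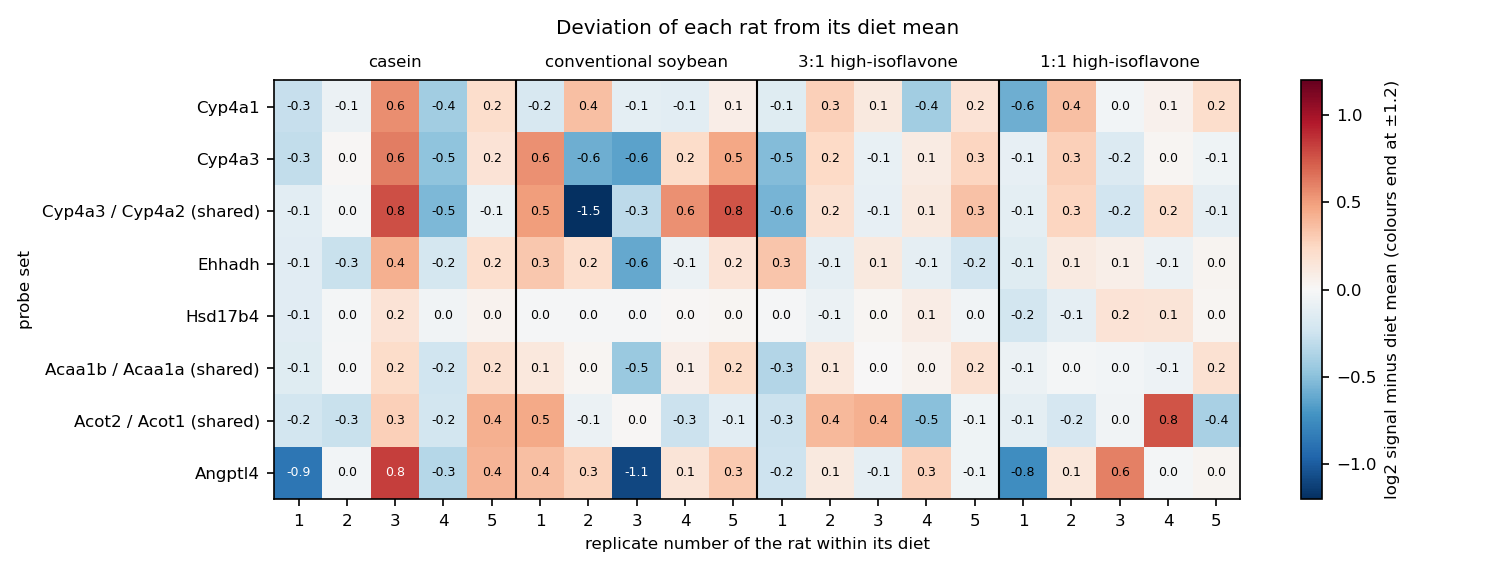
Deviation of each rat (x axis, replicate number within diet) from its diet mean in log2 units (colour and printed value) for the 8 probe sets (y axis). Casein replicate 3 is the highest of its diet in 7 of the 8, and replicate 1 of the 1:1 high-isoflavone diet is the lowest in 5.

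Some rats were at an end of their diet for several probe sets. How often this happens over all probe sets was not computed, and 2 of the 8 both list Cyp4a3. Casein replicate 3 was the highest casein rat for 7 of 8 probe sets and casein replicate 4 the lowest for 4. Conventional soybean replicate 3 was the lowest of its diet for 4, with Ehhadh at 5.18 and Angptl4 at 4.26. Replicate 1 of that diet was the highest for 4 and the lowest for 1. In the 1:1 high-isoflavone diet replicate 1 was lowest for 5 and replicate 2 highest for 4. The 3:1 high-isoflavone replicate 1, one of the arrays with a higher lowest value, was the lowest of its diet for 4 and the highest for 1.

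For each member with a probe set of its own, the 2 genes whose levels were most like it over the 20 arrays were found by Pearson's r. Cyp4a1 was most like Hadha, the alpha subunit of the mitochondrial trifunctional protein (r = 0.917, and 0.831 for deviations from diet means), and Acot2 (0.869 and 0.793). Cyp4a3 was most like Cpt2, the inner carnitine palmitoyltransferase of mitochondria (0.838 and 0.740), and the carnitine acetyltransferase Crat (0.806 and 0.719). Ehhadh was most like the glycerol-3-phosphate dehydrogenase Gpd1 (0.803 and 0.769) and Scly (0.803 and 0.762), Hsd17b4 like Vit (0.791 and 0.759) and Mark3 (0.767 and 0.663), and Angptl4 like LOC102550354 (0.802 and 0.847) and Epb41l5 (0.781 and 0.774). These are the highest of 13462 genes in each case, given as a description.

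The other genes of peroxisomal oxidation included 2 that rose, on both the conventional and the 1:1 diet, and none that fell. Over all 13462 genes, 251 were called against casein on the conventional diet, 8 on the 3:1 diet and 340 on the 1:1 diet. Of 35 in the list 31 were measured, with median differences from casein of -0.02 (conventional), 0.09 (3:1) and 0.10 (1:1), where the medians of all genes were 0.04, 0.01 and 0.03. Phyh, the phytanoyl-CoA hydroxylase that starts alpha-oxidation, rose by 0.57 on the 1:1 diet (SE 0.102, adjusted p = 0.00429) and by 0.42 on conventional soybean (adjusted p = 0.0388). Its casein rats read 8.20, 8.08, 8.04, 8.05 and 7.95 and its 1:1 rats 8.49, 8.67, 8.56, 8.61 and 8.84, with no overlap, which held for 4.45% of all probe sets there. A second probe set of Phyh rose by 0.66 on the 1:1 diet (SE 0.11, adjusted p = 0.00251). On conventional soybean it differed by 0.41 and was not called (adjusted p = 0.0624). Baat, which joins bile acids to taurine or glycine, rose by 0.48 (SE 0.102, adjusted p = 0.0141) and 0.41 (adjusted p = 0.0454) in the same comparisons. On the 3:1 diet Baat was also 0.48 above casein (SE 0.102, adjusted p = 0.106) and Phyh 0.32 (adjusted p = 0.34), neither called. Neither enzyme works in straight-chain beta-oxidation.

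Those calls, with Phyh on its first probe set, moved with the scaling of the arrays. Centring and scaling each array ended both calls on the 1:1 diet (highest adjusted p 0.0947 for Phyh and 0.244 for Baat) and brought the list's median there to -0.04. On conventional soybean the Phyh call was lost in 13 and the Baat call in 17 of 29 alternatives, among them the one without both arrays of higher lowest value. Crot, the peroxisomal carnitine octanoyltransferase, was chosen after its values were seen as the gene of the list with the highest 1:1 minus casein difference, 1.15 (SE 0.352, adjusted p = 0.0932), not called. Between the cultivars at the same share, 28 of 31 genes of the list were higher on the 1:1 diet (median 0.16, all genes -0.01) and none was called. Of all genes 52.7% were below 0 there. The lean was not particular to this list. Among lists described below, omega-oxidation had a median of 0.16 (15 of 19 above 0) and thioesterases 0.20 (6 of 9). Targets outside the peroxisome had 0.13 (26 of 41). Pericentral genes had -0.06 and macrophage markers -0.28. Ephx2, the soluble epoxide hydrolase, read 5.59, 5.85, 5.30, 4.64 and 5.11 on casein, 4.62, 4.15, 5.30, 2.03 and 4.23 on conventional soybean, 1.74, 2.17, 2.43, 2.04 and 4.82 on the 3:1 diet and 4.76, 4.90, 5.27, 4.69 and 5.97 on the 1:1 diet. Of the 3:1 rats 4 lay far below every casein rat and the fifth inside the casein range, as 1 conventional rat also lay far below its group mates. The differences from casein were -1.23 (adjusted p = 0.23), -2.65 (SE 0.52, adjusted p = 0.0617) and -0.18 (adjusted p = 0.909), in the order conventional, 3:1 and 1:1, and none was called. The 1:1 diet held the larger share of the same cultivar as the 3:1 diet, and all of its rats lay above 4 of the 5 rats on 3:1.

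Peroxins, the proteins that build peroxisomes, were measured for 13 of 16 genes and none was called in any comparison (medians -0.11, -0.04 and -0.03 against casein). Pex11a, which drives peroxisome division and is named as the lowest of them after its values were seen, differed by -0.67 on conventional soybean (SE 0.189, adjusted p = 0.0715) and -0.02 on the 1:1 diet (adjusted p = 0.977). On conventional soybean 1 peroxin fell under quantile normalization and 2 after centring and scaling.

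Omega-oxidation beyond the members was measured for 19 of 24 genes. Against casein 1 was called on conventional soybean and 1 on the 1:1 diet, beside 251 and 340 of all 13462 genes. Cyp4f17 fell by 0.93 on conventional soybean (SE 0.22, adjusted p = 0.0353), on a very dim probe set with means of 0.63 and 1.57. The medium-chain acyl-CoA synthetase Acsm1 rose by 0.36 on the 1:1 diet (SE 0.084, adjusted p = 0.0227), where its rats read 7.37, 7.74, 7.48, 7.72 and 7.46 against 7.22, 7.07, 7.22, 7.23 and 7.20 on casein. Both calls were lost without the arrays of higher lowest value. The Cyp4f17 call was also lost without any 1 of 8 arrays of the compared diets, those other than casein replicate 1 and conventional soybean replicate 2 (highest adjusted p 0.0851). The Acsm1 call was lost as well after centring, after centring and scaling, without the trend, and without casein replicate 2 or 5 or 1:1 replicate 2 or 4 (highest adjusted p 0.325). List medians against casein were 0.06, 0.10 and 0.10, and the last turned to -0.02 after centring and scaling. Cyp4a8, another CYP4A gene, chosen after its values were seen, was 1.01 higher on the 1:1 diet than on casein (SE 0.345), not called (adjusted p = 0.128). Its other probe set was 0.46 higher there (SE 0.139, adjusted p = 0.0883), also not called.

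Targets of the receptor outside peroxisomes leaned lower on conventional soybean. Of all 13462 genes, 106 fell and 145 rose on that diet. Of the 44 targets 41 were measured, 30 of them below 0 with a median of -0.16 (41.5% of all genes were below 0), yet 1 fell and none rose. That gene was Me1, the malic enzyme that supplies NADPH and is better known as a gene of fat synthesis, which fell by 2.09 (SE 0.464, adjusted p = 0.0257) from 6.20 to 4.11. Its casein rats read 4.82, 6.38, 6.45, 6.69 and 6.63 and its conventional rats 4.49, 4.96, 1.80, 4.68 and 4.62, and the call was lost without casein replicate 2, 3, 4 or 5, without both arrays of higher lowest value and with only the compared arrays (highest adjusted p 0.0841). Centring and scaling brought the count to 6 that fell, with a median of -0.28. Me1 also lay below casein on the 1:1 diet (-1.50, adjusted p = 0.0964) and the 3:1 diet (-1.37, adjusted p = 0.403), neither called. Its other probe set fell by 2.57 on conventional soybean (adjusted p = 0.028). It differed by -1.93 (adjusted p = 0.0863) on the 1:1 diet and -1.53 (adjusted p = 0.484) on the 3:1 diet.

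The named targets of mitochondria and fasting were lower on conventional soybean without being called. Cpt1a, which lets fatty acids into mitochondria, read 6.82, 7.48, 6.64, 6.89 and 6.96 on casein and 5.19, 5.82, 6.61, 5.34 and 6.44 on conventional soybean. The groups did not overlap, which held for 4.62% of all probe sets there. The difference was -1.08 (SE 0.293, adjusted p = 0.0648), with -0.88 on the other Cpt1a probe set (adjusted p = 0.0702). The fasting hormone Fgf21 differed by -1.31 (SE 0.344, adjusted p = 0.0555) and the pyruvate dehydrogenase kinase Pdk4 by -0.81 (SE 0.33, adjusted p = 0.209). The Fgf21 probe set was dim and its groups overlapped. It read 1.67, 3.63, 3.81, 1.91 and 2.94 on casein and 1.09, 1.97, 1.42, 0.82 and 2.12 on conventional soybean. On the 1:1 diet Cpt1a differed from casein by -0.29 (adjusted p = 0.683), and the cultivars differed by 0.79 (SE 0.293, adjusted p = 0.566). A second probe set of Pdk4 fell by 0.64 on the 1:1 diet (SE 0.168, adjusted p = 0.0492), while the first differed by -0.42 (adjusted p = 0.563).

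On the 1:1 diet, with 1 probe set per gene, 340 of all 13462 genes were called, and of the targets 1. This was Fabp1, the liver fatty acid binding protein, which fell by 0.53 (SE 0.106, adjusted p = 0.0102). Its casein rats read 9.14, 9.13, 9.20, 9.07 and 9.05 and its 1:1 rats 8.28, 8.40, 8.71, 8.77 and 8.78. They did not overlap, which held for 4.45% of all probe sets there, and the call held in all 29 alternatives. The list's median there was -0.04. Under the same diet all 6 measured macrophage markers of 8 lay below casein, by 0.30 to 0.50 (none called), and their summed signal was 6.49 to 6.98 beside 6.87 to 7.55 on casein. Their part in these values was not tested.

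Of the receptor's partners and co-regulators 21 of 23 were measured and none was called in any comparison. Rxra, its partner receptor, differed from casein by 0.09, 0.02 and 0.23 on the conventional, 3:1 and 1:1 diets (adjusted p = 0.716, 0.984 and 0.323). Of the thioesterase list 9 of 10 were measured, none called, with a median of -0.24 on conventional soybean. Around Angptl4, 7 of 11 genes were measured in a list of its family, of lipases and of genes that serve lipoprotein lipase. Hepatic lipase, Lipc, fell by 0.58 on conventional soybean (SE 0.109, adjusted p = 0.0102) and by 0.47 on the 1:1 diet (adjusted p = 0.0242), and the other 6 were not called. The first call held in all 29 alternatives (highest adjusted p 0.0342), and the second was lost in 6 (highest 0.0614), namely without casein replicate 2, 3 or 4, without 1:1 replicate 1 or 4, and without both arrays of higher lowest value. Acaa1b was not analysed here, having no tested probe set of its own symbol.

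**Figure D4:**
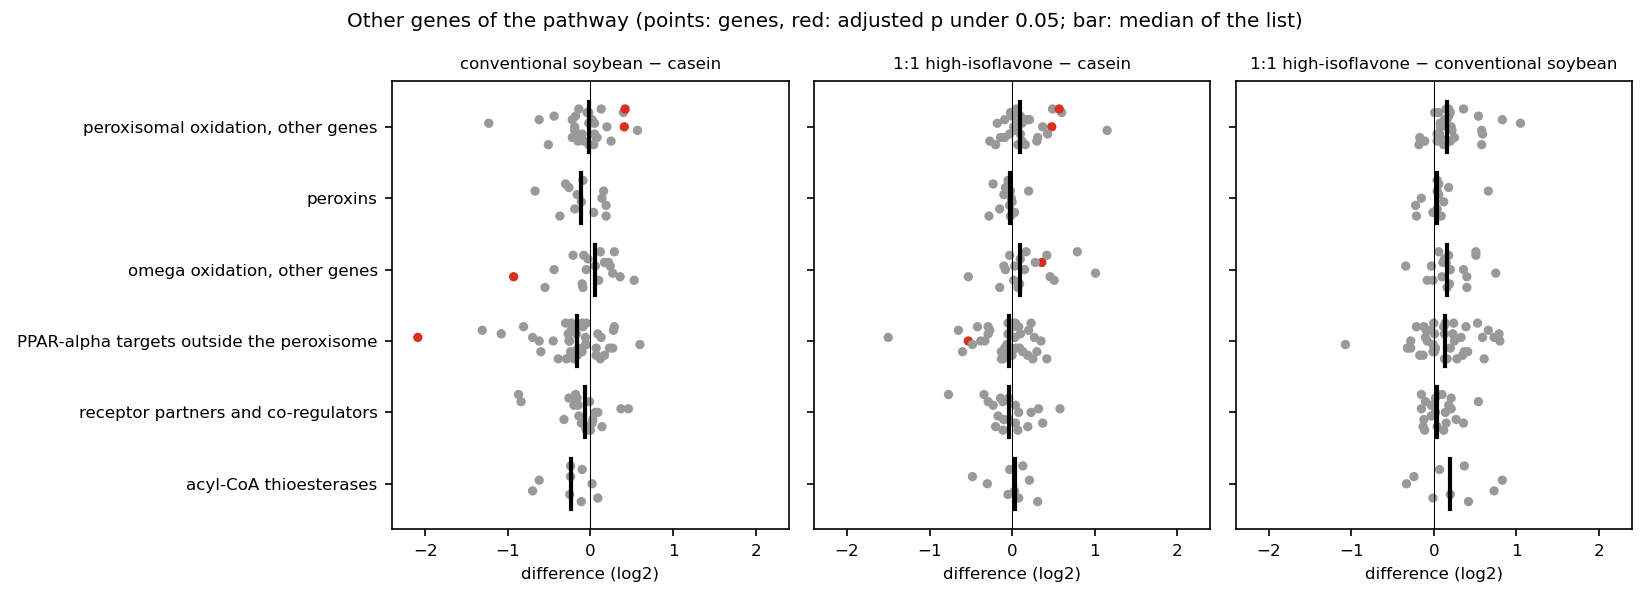
Difference in mean log2 signal (x axis) for each measured gene of 6 pathway lists (y axis) in 3 comparisons, with red points for an adjusted p under 0.05 and a bar at the list's median. Targets outside the peroxisome centre on -0.16 for conventional soybean against casein. For the 1:1 high-isoflavone against the conventional diet, peroxisomal and omega-oxidation genes both centre on 0.16.

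Zonation markers were compared because CYP4A enzymes are richer near the central vein. The summed signal of 11 of 12 pericentral genes was 9.05 to 9.24 in casein rats, 8.56 to 9.76 in conventional soybean rats, 8.69 to 9.03 in 3:1 rats and 8.69 to 9.15 in 1:1 rats. No pericentral gene was called against casein. Of 11 periportal genes, all measured, summed signals were 10.60 to 10.89 on casein, 10.39 to 10.86 on conventional soybean, 10.63 to 10.84 on the 3:1 diet and 10.58 to 10.82 on the 1:1 diet. In that list Aldh1b1, a mitochondrial aldehyde dehydrogenase, fell by 1.59 on conventional soybean (adjusted p = 0.0474, lost in 17 of 29 alternatives) and by 1.78 on the 1:1 diet (adjusted p = 0.0212, lost in 3), while Hal, the histidine ammonia-lyase, rose by 0.67 on the 1:1 diet (adjusted p = 0.00978, held in all 29). Of bile duct markers 3 of 4 were measured, with summed signals of 3.47 to 4.07 on casein, 3.45 to 3.93 on conventional soybean and 3.24 to 3.90 on the 1:1 diet. Among them Epcam fell by 0.71 on conventional soybean (adjusted p = 0.0257, lost in 7 of 29 alternatives) and by 0.95 on the 1:1 diet (adjusted p = 0.00251, held in all 29). The other 2 were not called. The highest of the 3 lay above casein, by 1.01 on conventional soybean and 0.88 on the 1:1 diet, and the medians of the 3 were -0.10 and -0.05. The part of zonation or of bile duct cells in the Cyp4a1 difference was not tested.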

How the data were processed

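Liver RNA of 20 rats was measured, 1 array each. The authors deposited 1 table of values normalized with the SuperNORM data service, per the labels; no source used here says how probes were summarized. The deposited values were taken as log10 signal, from spike-in controls (slope 0.9965, SD 0.0242), and multiplied by 3.3219 to give log2. Of 31099 probe sets, 57 controls and 3342 without values (2 in both) were left out. Symbols came from the platform annotation: 19147 tested probe sets had 1, 404 several and 8151 none. A gene was represented by its probe set of highest mean over the 20 arrays. Differences were tested with limma 3.58.1 (R 4.3.3): 1 mean per diet over all arrays, eBayes with trend, two-sided, Benjamini-Hochberg over 27702 probe sets, standard errors moderated. The fit was checked on simulated data. Correlations used 100000 permutations within diet. Array number limits precision; depth does not apply.

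Named genes were all members, up to 4 called genes per list and comparison, further genes whatever their values (Acaa1b, Cpt1a, Fgf21, Pdk4, Ephx2, Rxra; others are not reported here), and the 2 genes most like each member. Members and lists were chosen with earlier results of these data known. Alternatives were array weights, 3 scalings, the compared arrays alone, a replicate block, the dimmest probe sets left out, no trend and each array left out; leaving out both arrays of higher lowest value was chosen after seeing the data. Replicate numbers were not used as pairs, since they name separate rats and only replicate 1 deviated together in every pair of diets.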

Additional observations from a re-analysis of the deposited data

Results flagged for a closer look

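In groups of 5 rats, the gap between the highest or lowest rat and its nearest neighbour was set against the range of the group (Dixon's test, critical value 0.71), over 32 groups of the 8 probe sets. Chance marks about 1 group in 20. Angptl4 was lowest in conventional soybean replicate 3, at 4.26 against 5.50 to 5.71 in its 4 group mates (gap over range 0.858). The probe set of Acaa1b and Acaa1a was highest in replicate 5 of the 1:1 high-isoflavone diet, at 7.12 against 6.87 to 6.92 in the others (gap over range 0.809).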

How the results depend on the processing

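Of 1155 recomputed member differences (40 differences, up to 29 alternatives), 1143 kept their direction and side of the threshold or were never called, 10 lost the Cyp4a1 call on conventional soybean, and 2 made the Cyp4a3 and Cyp4a2 probe set called on the 1:1 diet; no called difference reversed. Member probe sets called on conventional soybean went from 1 to 0 with only the compared arrays, without the trend and without both arrays of higher lowest value (adjusted p of Cyp4a1 0.0508, 0.0557 and 0.108), and ranged from 0 to 1 over single omissions. On the 1:1 diet they went from 0 to 1 with only the compared arrays and from 0 to 1 over omissions. Over all probe sets, calls on conventional soybean (453) became 114 without both such arrays and 120 to 499 over omissions, the lowest without casein replicate 5. On the 1:1 diet (613) they became 312 and 296 to 716, the lowest without its replicate 2. On the 3:1 diet (11) they became 25 with array weights, 23 with the replicate block, 18 without the dim probe sets, 7 with quantile normalization, 6 centred and scaled, 5 with only the compared arrays, 4 without both such arrays, 3 without the trend and 1 to 26 over omissions. Between cultivars (21) they became 13 centred and scaled, 12 with only the compared arrays and 11 to 31 over omissions. Between shares (0) they were 0 to 1 over omissions. Causes were not tested. Calls of genes on conventional soybean were 145 higher and 106 lower as deposited, 96 and 204 after quantile normalization and 68 and 287 centred and scaled, so directions of small differences depend on scaling. Replicate numbers were not taken as pairs: arrays of replicate 1 correlated across diets in all 6 pairs (0.203 to 0.401, median 0.257), those of the other 4 numbers had medians of -0.038 to 0.096, and 7 of 20 arrays correlated best with their own number. With the replicate block 591 and 659 probe sets were called on the conventional and 1:1 diets, with Cyp4a1 at adjusted p = 0.00863. Probe sets were not averaged per gene, so Cyp4a3 is read both on its own probe set and on the one shared with Cyp4a2. The Acot2 and Acot1 probe set had no value without the dim probe sets.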
